A study of Mus musculus with 12 samples.

Results

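Collagen VI is a microfibrillar collagen of the extracellular matrix whose chains are encoded in the mouse by the 6 genes Col6a1 to Col6a6. These 6 genes were chosen by name from the 54532 genes in the deposited tables, and all 6 were present. They were followed across 12 mammary tumors of female MMTV-Neu mice, in 3 diet groups of 4 tumors, which were control, MSU-42011 and bexarotene, each agonist given at 100 mg/kg diet for 10 days. The control diet was powdered chow with vehicle only. All mice carried a Neu (Erbb2) transgene without an activating mutation, driven by the promoter of the mouse mammary tumor virus, and each was assigned to a diet once a tumor had grown. MSU-42011 and bexarotene both activate RXR (retinoid X receptor), a nuclear receptor, and the study compared how they change gene expression in tumors, with Col6a3 among the genes it followed. Poly(A) RNA of a frozen piece of each tumor was sequenced, so epithelial, stromal and immune cells were measured together, and fewer cells of a type cannot be told apart from less RNA per cell. Ages of the mice are not given in the sources used here.

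The α1 and α2 chains, encoded by Col6a1 and Col6a2, combine with a further chain into a triple-helical monomer that assembles into beaded microfilaments around cells and basement membranes. The α3 chain, encoded by Col6a3, is the usual partner, and the α4, α5 and α6 chains, encoded by Col6a4, Col6a5 and Col6a6, are related to α3 and can take its place. Fibroblasts are the main source of collagen VI in many tissues, and the C-terminal fragment of the α3 chain, endotrophin, is known for effects on fibrosis, macrophages and mammary tumor growth.

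On GRCm38, Col6a1 lies at chr10:76708792-76726168 and Col6a2 at chr10:76595762-76623630, 85161 bases apart, and Col6a3 lies at chr1:90765923-90843971. Col6a4 (chr9:105989454-106096783), Col6a5 (chr9:105856078-105960643) and Col6a6 (chr9:105687809-105828160) form a cluster with gaps of 28810 and 27917 bases. All 6 genes lie on the minus strand, and every annotated gene that overlaps one of them had 0 reads in the 12 tumors. The 250 bases before the annotated starts of the 3 chains with abundant reads are shown because the levels of Col6a1 and Col6a2 followed each other across the tumors while Col6a3 was high without them in a pair of tumors. The sequences are from RefSeq (GRCm38.p6) and read 5′ to 3′ on the minus strand. Capitals mark 3 motifs searched on both strands, which were the GC box GGGCGG, the AP-1 site TGACTCA and the nuclear receptor half-site AGGTCA. Overlapping matches were counted apart. The RefSeq start of Col6a1 lies 124 bases inside the gene's end in the files and the downstream start of Col6a2 226 bases inside, so these windows reach into the annotated gene, and the ends of the Col6a2 windows overlap.
Col6a1, chr10:76726045-76726294: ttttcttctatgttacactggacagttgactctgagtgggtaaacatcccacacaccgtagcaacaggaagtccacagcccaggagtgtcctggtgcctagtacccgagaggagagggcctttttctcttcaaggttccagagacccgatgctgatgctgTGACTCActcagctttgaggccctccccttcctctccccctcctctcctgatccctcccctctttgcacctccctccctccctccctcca
Col6a2, downstream start, chr10:76623405-76623654: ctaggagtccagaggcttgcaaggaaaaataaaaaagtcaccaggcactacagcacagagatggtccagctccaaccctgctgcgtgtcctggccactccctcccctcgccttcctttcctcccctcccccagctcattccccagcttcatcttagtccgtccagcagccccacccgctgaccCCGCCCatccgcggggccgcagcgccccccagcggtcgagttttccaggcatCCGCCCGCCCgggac
Col6a2, upstream start, chr10:76623631-76623880: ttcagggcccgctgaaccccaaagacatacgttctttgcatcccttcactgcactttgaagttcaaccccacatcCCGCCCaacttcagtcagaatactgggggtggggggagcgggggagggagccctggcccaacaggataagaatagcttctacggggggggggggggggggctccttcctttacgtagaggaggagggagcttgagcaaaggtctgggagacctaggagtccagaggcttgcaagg
Col6a3, chr1:90843972-90844221: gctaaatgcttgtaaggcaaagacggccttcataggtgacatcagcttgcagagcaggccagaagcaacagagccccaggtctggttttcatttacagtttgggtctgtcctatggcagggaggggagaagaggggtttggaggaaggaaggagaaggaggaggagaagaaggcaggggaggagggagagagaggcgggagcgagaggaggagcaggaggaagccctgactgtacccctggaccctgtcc
The Col6a1 window held 1 AP-1 match, a motif present in 4.46% of 32851 windows of the same length. The windows of Col6a2 held 3 and 1 GC box matches, a motif present in 32.7% of the windows. The Col6a3 window held none of the 3 motifs. The half-site, present in 14.0% of all windows, was in none of the 4 sequences shown. Their G and C content was 56.0% for Col6a1, 64.4% and 59.2% for Col6a2 and 57.2% for Col6a3, against a median of 52.4% over all windows. These matches describe letters and not binding.

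Between 16583413 and 25925027 reads were counted per tumor, and 15504 genes passed edgeR's filter on low counts. Bexarotene replicate 1 stood apart from the other tumors, at −115 on the first principal component of edgeR's log2 CPM (33.6% of the variance) against −16.2 to 34.2 for the others. It had the highest level of all 12 tumors for 19.1% of the tested genes. Epithelial identity was present in every tumor, with summed luminal epithelial markers between 3181 and 6588 normalized CPM, and 3 of 10 adipocyte markers, Fabp4, Lpl and Cfd, passed the filter. Of these, Fabp4 was at 12.1 to 76.3 and Lpl at 11.4 to 76.4 normalized CPM, while Adipoq, the adipocyte hormone adiponectin, was at 1.25 or less. In the following, normalized CPM are counts per 1000000 reads after edgeR's TMM scaling, and results that rest on bexarotene replicate 1 are given with and without it.

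Col6a1, Col6a2 and Col6a3 passed the filter on low counts, whereas Col6a4, Col6a5 and Col6a6 had too few reads. In control replicates 1 to 4, Col6a1 was measured at 45.0, 10.9, 15 and 28.7 normalized CPM. In MSU-42011 replicates 1 to 4 it was measured at 33.3, 14.2, 68.6 and 31.5 normalized CPM, and in bexarotene replicates 1 to 4 at 297, 44.3, 23.2 and 25.1. All 3 groups overlapped, and bexarotene replicate 1 was over 4 times as high as any other tumor. Col6a2 was measured at 38.5, 12.3, 13.9 and 29.5 normalized CPM in the control tumors, at 30.6, 12.7, 71.0 and 31.2 in the MSU-42011 tumors and at 277, 33.5, 23.9 and 29.5 in the bexarotene tumors. Its tumors were again overlapping between groups, with the highest value in bexarotene replicate 1 and the lowest in control replicate 2.

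Col6a3 was measured at 32.7, 9.42, 17.1 and 29.5 normalized CPM in the control tumors. In the MSU-42011 tumors it was measured at 36.7, 61.9, 123 and 39.4 normalized CPM, all 4 above the highest control tumor. In the bexarotene tumors it was measured at 196, 24.0, 25.8 and 88.9 normalized CPM, with replicates 1 and 4 above every control tumor and replicates 2 and 3 within the control range. The group means were 22.2 ± 10.8 in control, 65.2 ± 40.1 in MSU-42011 and 83.5 ± 80.5 normalized CPM in bexarotene tumors (SD, n = 4 each). The plot of levels by tumor shows these patterns side by side.

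**Figure D1:**
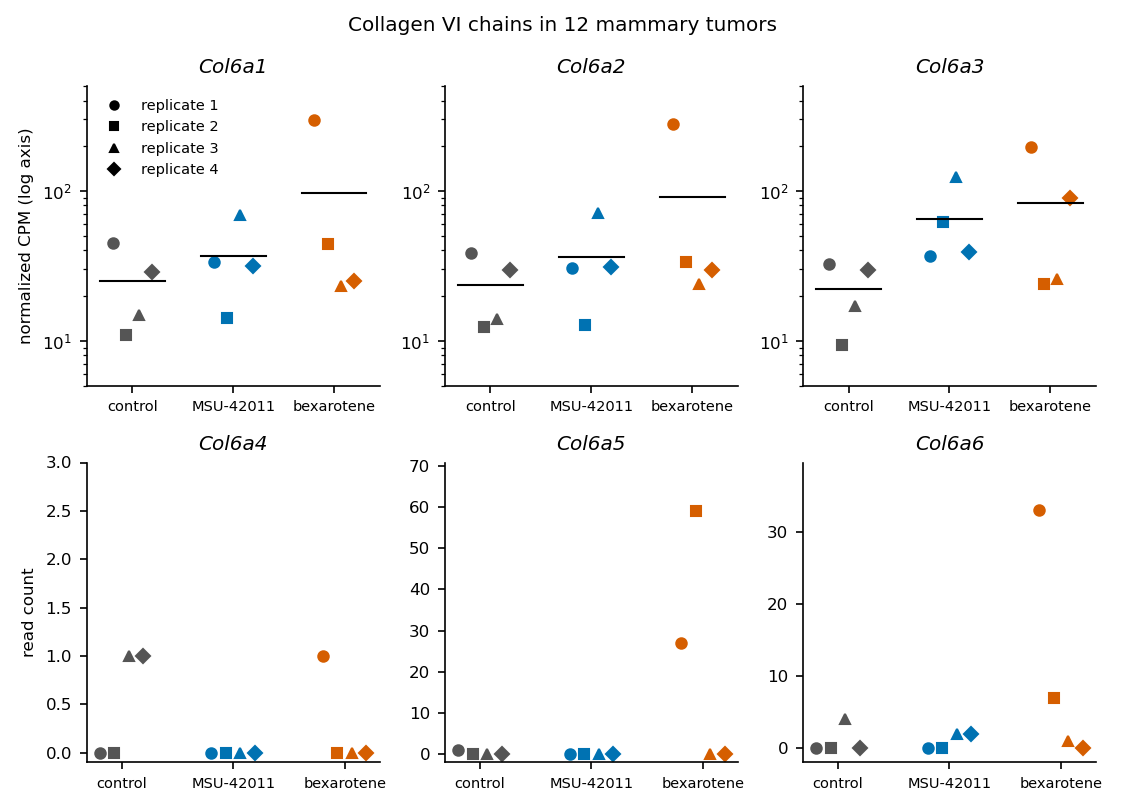
Level of each collagen VI chain in each tumor, by diet group. The upper panels give normalized CPM on a log axis with a line at the group mean, the lower panels give raw read counts on linear axes, and symbols mark the replicate number. All 4 MSU-42011 tumors lie above all control tumors for Col6a3 (lowest 36.7 against highest 32.7 normalized CPM), bexarotene replicate 1 is highest for Col6a1, Col6a2 and Col6a3, and Col6a4 never exceeds 1 read.

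Levels of different chains can be compared only per length. The FPKM that the authors deposited rest on a length per gene that equals the mean over all annotated transcripts, retained introns included, for 95.5% of 18296 genes with enough reads to compare. For Col6a1 this length was 2512 bases and the principal transcript Col6a1-201 has 4100 bases, for Col6a2 it was 4504 against 3949 bases, and for Col6a3 it was 4715 against 9001 bases. By the deposited FPKM, Col6a1 was 1.87 times as high as Col6a2 (median of 12 tumors, range 1.53 to 2.37). By reads per base of the principal transcript the same ratio was 1.00 (range 0.821 to 1.27), so which of the α1 and α2 messages appears higher depends on the length used, while the spread between tumors does not. On the principal transcripts the levels in control tumors were 5.92 ± 3.68 FPKM for Col6a1, 5.81 ± 3.11 for Col6a2 and 2.40 ± 1.17 for Col6a3 (SD, n = 4). Within single control tumors the ratio of Col6a1 to Col6a2 on these lengths ran from 0.852 to 1.13, so neither of the pair was higher throughout.

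The place of Col6a3 in the order also depended on the length. On the principal transcripts it was below both partners in 10 of 12 tumors, and by the deposited FPKM in 5 of 12, with a level above Col6a2 in the other 7. On the principal transcripts its ratio to Col6a1 had a median of 0.503, and it was between 0.331 and 0.521 in the control tumors. Col6a3 exceeded both partners in MSU-42011 replicate 2, at 1.98 times Col6a1 and 2.14 times Col6a2, and in bexarotene replicate 4, at 1.61 and 1.32 times. In MSU-42011 replicate 2 the α1 and α2 messages were at 14.2 and 12.7 normalized CPM, near the lowest control tumors, while Col6a3 was at 61.9. The remaining bexarotene tumors had ratios to Col6a1 of 0.300, 0.247 and 0.505. Among the chains that can take the third position (α3 to α6), Col6a3 made up between 88.7% and 100% of the summed level per length, with a median of 99.8%, and the lowest share was in bexarotene replicate 2.

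**Figure D2:**
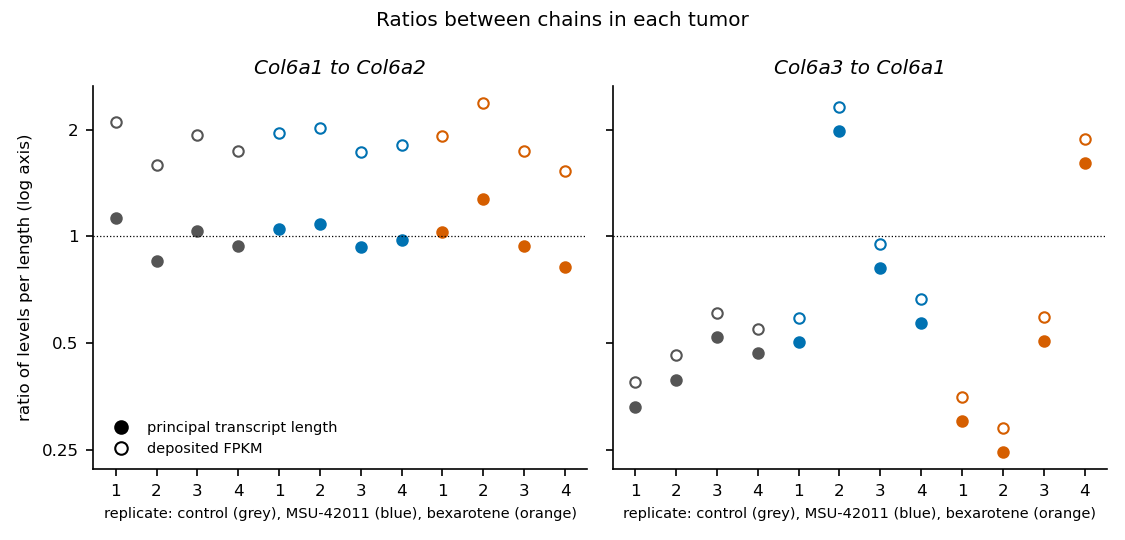
Ratio of Col6a1 to Col6a2 (left) and of Col6a3 to Col6a1 (right) in each tumor, on a log axis, from the principal transcript length (filled) and from the deposited FPKM (open). The left ratio is between 0.821 and 1.27 on principal transcripts in all 12 tumors, and the right ratio is above 1 in MSU-42011 replicate 2 and bexarotene replicate 4.

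The α4 to α6 chains were at or near the limit of detection. Col6a4 had 1 read in control replicates 3 and 4 and in bexarotene replicate 1, and 0 reads in the other 9 tumors. Col6a5 had 27 reads in bexarotene replicate 1 and 59 in bexarotene replicate 2, 1 read in control replicate 1 and 0 in the other 9 tumors. Col6a6 had 33, 7, 1 and 0 reads in bexarotene replicates 1 to 4, 4 reads in control replicate 3, 2 each in MSU-42011 replicates 3 and 4 and 0 in the other tumors. A count of 0 allows up to 3 reads, or 0.111 to 0.184 normalized CPM depending on the tumor, and this limit covers counting error only. Col6a5 and Col6a6 were thus both above that limit in bexarotene replicates 1 and 2, at 0.996 and 2.81 normalized CPM for Col6a5 and at 1.22 and 0.334 for Col6a6. The same tumors had the highest summed fibroblast markers of the bexarotene group, and what part this has in the counts was not tested. No fold change is given for these 3 chains.

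MSU-42011 was first compared with control diet. Col6a3 was 2.94-fold higher in MSU-42011 tumors, a log2 fold change of 1.56 (SE 0.67, 95% interval 0.11 to 3.0). In edgeR's quasi-likelihood test its unadjusted p was 0.0373 and its Benjamini-Hochberg adjusted p over all genes was 0.9999, so the difference did not pass the threshold of 0.05. All 4 MSU-42011 tumors were above all 4 control tumors, and the exact two-sided permutation p was 0.0286, the smallest that 4 against 4 tumors can give. Groups that did not overlap in this direction were found for 1.16% of the tested genes, an unadjusted p under 0.05 with a higher level for 1.14%, and an adjusted p under 0.05 in edgeR for 0.0% (DESeq2 called 1 gene, not a chain). Leaving out each tumor in turn gave log2 fold changes between 1.05 (without MSU-42011 replicate 3) and 1.80. The edgeR unadjusted p then ran from 0.0125 without bexarotene replicate 1 to 0.143 without MSU-42011 replicate 3, with adjusted p of 0.993 or above. Bexarotene replicate 1 enters this p because the 3 groups share 1 estimate of the spread. With only these 2 groups in the model the edgeR unadjusted p was 0.00795 (adjusted p = 0.9998).

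Col6a1 and Col6a2, the obligate partners, were 1.49-fold and 1.54-fold higher with MSU-42011. Their log2 fold changes were 0.57 (SE 0.80, 95% interval −1.16 to 2.31) and 0.63 (SE 0.78, 95% interval −1.08 to 2.33), with edgeR unadjusted p-values of 0.488 and 0.439 (adjusted p = 0.9999 for both). The exact permutation p was 0.429 for Col6a1 and 0.514 for Col6a2, and 1 of 4 MSU-42011 tumors was above every control tumor for either gene. These values rested on MSU-42011 replicate 3, without which they were 0.09 and 0.08. Col6a3 was thus the only member of which all treated tumors lay above all controls.

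Bexarotene was compared with control diet in the same model. Col6a3 was 3.77-fold higher, a log2 fold change of 1.91 (SE 0.67, 95% interval 0.45 to 3.38), with an unadjusted p of 0.0144 and a Benjamini-Hochberg adjusted p of 0.762 in edgeR. The exact permutation p was 0.171, and 2 of 4 bexarotene tumors were above every control. The corresponding log2 fold changes were 1.97 (SE 0.82, edgeR unadjusted p = 0.0327) for Col6a1 and 1.95 (SE 0.80, edgeR unadjusted p = 0.0315) for Col6a2, both with an adjusted p of 0.762. Here only replicate 1 exceeded every control tumor, and the exact permutation p-values were 0.286 and 0.257. DESeq2 called 6 genes in this comparison, none of them a chain. Of all tested genes, 4.48% were higher with bexarotene at an unadjusted p under 0.05, 1.14% were higher without overlap (0 of the 3 chains) and 0.0% passed the adjusted threshold.

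Bexarotene replicate 1 carried much of these differences. Without it the log2 fold change was 0.31 for Col6a1 and 0.30 for Col6a2, and 1.06 for Col6a3 (edgeR unadjusted p = 0.0829). The means of the 3 remaining bexarotene tumors were 30.9 ± 11.7, 28.9 ± 4.83 and 46.2 ± 37.0 normalized CPM (SD, n = 3), against control means of 24.9 ± 15.4, 23.6 ± 12.6 and 22.2 ± 10.8 (n = 4). For Col6a3 the excess over control was in replicate 4 (88.9), and replicates 2 and 3 were at 24.0 and 25.8. Without replicate 1, 1.6% of all tested genes were higher at an unadjusted p under 0.05, and none of the 3 chains was among them.

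The agonists, fed at the same dose for the same time, were compared directly for the 3 chains. Col6a3 differed by a log2 fold change of −0.36 (MSU-42011 against bexarotene, SE 0.65, 95% interval −1.77 to 1.05, edgeR unadjusted p = 0.589), an interval that runs from 0.294-fold to 2.07-fold. Col6a1 differed by −1.40 (SE 0.80, 95% interval −3.15 to 0.35, edgeR unadjusted p = 0.106) and Col6a2 by −1.33 (SE 0.79, 95% interval −3.04 to 0.39, edgeR unadjusted p = 0.118), all with an adjusted p of 0.997 (Benjamini-Hochberg over all genes). The intervals do not show that the agonists act alike. Without bexarotene replicate 1 the direction turned for all 3 chains, to 0.26, 0.33 and 0.50 for Col6a1, Col6a2 and Col6a3. The exact permutation p-values with all tumors were 0.571, 0.6 and 1.0. Of all tested genes, 3.13% were lower in MSU-42011 than in bexarotene tumors at an unadjusted p under 0.05, 0.535% were lower without overlap and 0.0% passed the adjusted threshold, and none of the chains met any of these. DESeq2 called 25 genes, none of them a chain. Across the 3 groups the edgeR unadjusted p was 0.0657 for Col6a1, 0.0669 for Col6a2 and 0.0408 for Col6a3 (adjusted p = 0.998 for each). In that test 4.24% of all genes had an unadjusted p under 0.05 and 0.0% an adjusted one in edgeR, against 5 genes called by DESeq2.

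**Figure D3:**
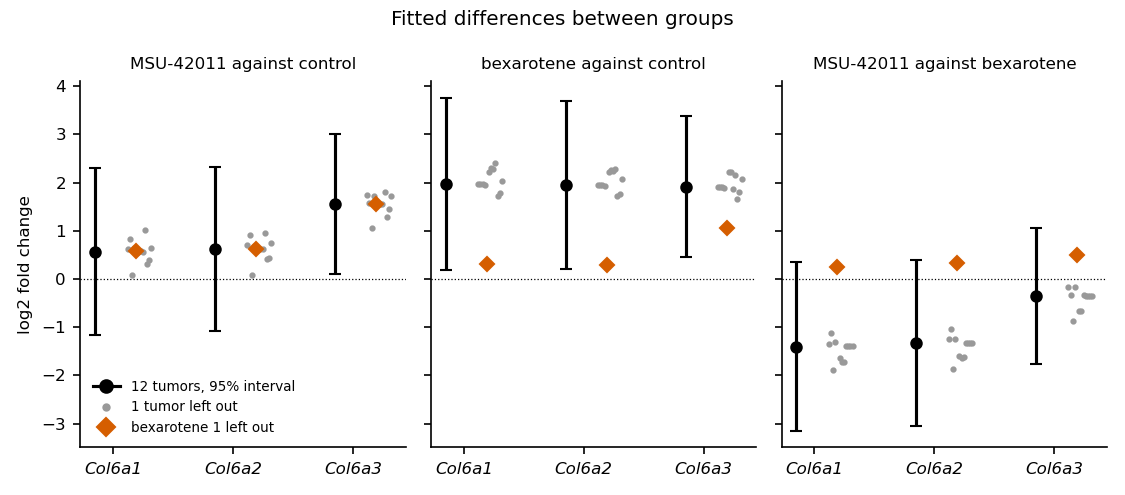
Fitted log2 fold changes of Col6a1, Col6a2 and Col6a3 in the 3 comparisons, with 95% intervals (black) and the values with each of the 12 tumors left out (grey), among them bexarotene replicate 1 (orange). In the bexarotene comparison Col6a1 moves from 1.97 to 0.31 and Col6a3 from 1.91 to 1.06 without that tumor. That tumor is in neither group of the comparison of MSU-42011 with control, but it enters the intervals there through the shared estimate of the spread. In that comparison Col6a3 moves from 1.56 to 1.05 without MSU-42011 replicate 3.

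Since the chains enter 1 molecule together, the balance between them was tested in each tumor as the log2 ratio of Col6a3 to the mean of Col6a1 and Col6a2, from the deposited FPKM. This ratio was −0.84, −0.78, −0.24 and −0.47 in control replicates 1 to 4. It was −0.28, 1.72, 0.33 and −0.16 in the MSU-42011 tumors, 3 of which were above every control, and −1.04, −1.17, −0.36 and 1.22 in the bexarotene tumors, 1 of which was above every control. The mean was −0.58 ± 0.28 in control, 0.40 ± 0.92 in MSU-42011 and −0.34 ± 1.10 in bexarotene tumors (SD, n = 4). MSU-42011 and control differed by 0.98 (exact permutation p = 0.0571), bexarotene and control by 0.25 (exact permutation p = 0.857) and the agonists by 0.74 (exact permutation p = 0.343). None of these passed 0.05 in these tests, which cannot go below 0.0286. A change of the length used shifts all tumors alike and leaves these differences as they are. The log2 ratio of Col6a1 to Col6a2, in contrast, had an SD of 0.18 over the 12 tumors, against 0.88 for the ratio of Col6a3. Its differences between groups were 0.036 or less on the log2 scale, with exact permutation p-values between 0.743 and 0.943.

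Marker levels of stromal cells were set beside the chains. The mean log2 level of 12 fibroblast markers was subtracted from the log2 level of Col6a3 in each tumor. The result was 1.97, 2.16, 2.25 and 3.43 in the control tumors and 4.26, 4.03, 5.42 and 4.23 in the MSU-42011 tumors, so that the groups did not overlap. Col6a3 alone already separated these groups, by 1.51 on the log2 scale, so this is not a separate result. Raw levels did so in this direction for 1.16% of tested genes, and the share on the relative measure was not computed. The relative level was 0.20, 0.42, 3.46 and 5.32 in the bexarotene tumors, which spanned a wider range than the other groups together. MSU-42011 tumors were 2.03 higher than control tumors on this log2 scale (4.49 ± 0.63 against 2.45 ± 0.66, SD, n = 4, exact permutation p = 0.0286, the smallest possible). Both terms enter this difference, since the fibroblast markers themselves had a median log2 fold change of −0.88 with MSU-42011, with 3 of 12 higher, while their summed level had a median of 138 normalized CPM in MSU-42011 and 128 in control tumors. Several of these markers, among them Lum, Dpt, Clec3b and Mfap4, were near 0 in many tumors. With fibrillar collagens in place of the fibroblast markers the difference was 1.09 (exact permutation p = 0.0286). Bexarotene and control differed by −0.10 (exact permutation p = 0.943) and the agonists by 2.13 (exact permutation p = 0.200). Relative to the same markers, Col6a1 was 1.08 and Col6a2 1.05 higher with MSU-42011 than in control (exact permutation p = 0.143 and 0.200), with 3 of 4 tumors above all controls for each.

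**Figure D4:**
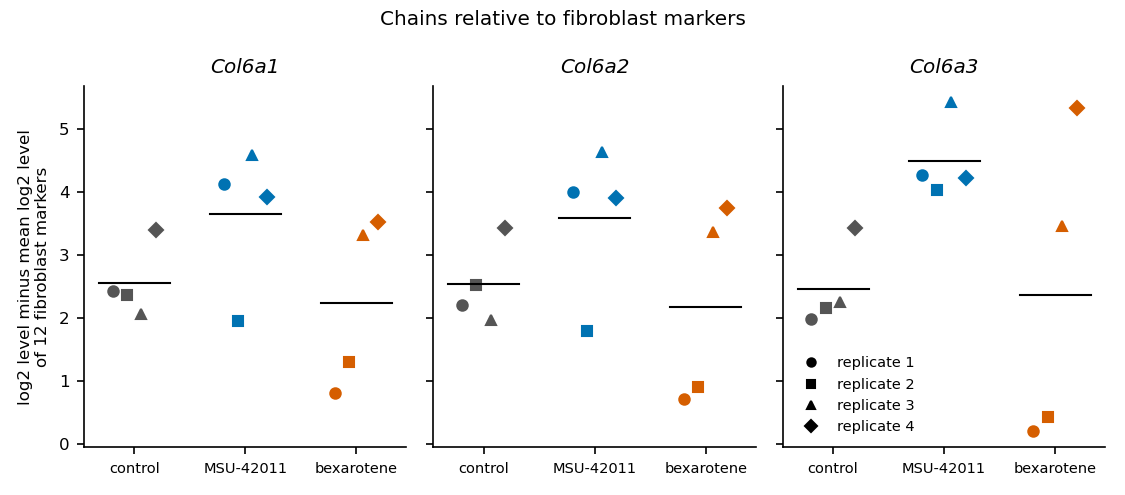
Log2 level of Col6a1, Col6a2 and Col6a3 minus the mean log2 level of 12 fibroblast markers, per tumor and group, with a line at the group mean. For Col6a3 the MSU-42011 tumors lie between 4.03 and 5.42, above the control tumors at 1.97 to 3.43, and the bexarotene tumors spread from 0.20 to 5.32.

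Across the 12 tumors Col6a1 and Col6a2 followed each other closely. Pearson's r of log2 levels between Col6a1 and Col6a2 was 0.990 (Spearman's rho 0.993), with a permutation p of 1e-05, the smallest that 100000 resamples give, and 0.00014 after Benjamini-Hochberg adjustment over 21 correlations. It was 0.973 without bexarotene replicate 1, 0.969 without the pair of tumors farthest from the median and 0.988 within groups. Col6a3 had an r of 0.733 with Col6a1 (rho 0.545, permutation p = 0.00608 for r and 0.0708 for rho, adjusted p = 0.0189 and 0.175). With Col6a2 its r was 0.760 (rho 0.552, permutation p = 0.00348 for r and 0.0663 for rho, adjusted p = 0.0146 and 0.175). Both correlations depended on bexarotene replicate 1. Without bexarotene replicate 1, r was 0.543 and 0.601 (adjusted permutation p = 0.293 and 0.209), and without the pair of farthest tumors (control replicate 2 and bexarotene replicate 1) they were 0.329 and 0.453. Within groups r was 0.718 and 0.760 (exact permutation over 13824 rearrangements, adjusted p = 0.0699 and 0.0492).

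The chains were also compared with the mean log2 levels of marker lists. Endothelial markers had an r of 0.953 with Col6a1 and 0.955 with Col6a2 (adjusted permutation p = 0.00014 for both, rho 0.902 and 0.874), and 0.906 and 0.90 without bexarotene replicate 1 (adjusted permutation p = 0.000315 and 0.00056). Fibroblast markers had an r of 0.792 and 0.744 with Col6a1 and Col6a2 (adjusted permutation p = 0.0308 and 0.0576), and 0.338 and 0.157 without that tumor. For Col6a3, r was 0.754 with endothelial markers (adjusted permutation p = 0.00761), and 0.658 without that tumor (adjusted permutation p = 0.155), and 0.450 with fibroblast markers (adjusted permutation p = 0.185), and −0.138 without that tumor. Macrophage markers had an r of 0.824 with both Col6a1 and Col6a2 (adjusted permutation p = 0.0189) and 0.494 with Col6a3 (adjusted permutation p = 0.139), and 0.462, 0.449 and −0.004 without bexarotene replicate 1. With adipocyte, luminal epithelial and skeletal muscle markers, r lay between −0.519 and 0.679 over the 3 chains, and no adjusted permutation p was under 0.05 (lowest 0.0674).

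Of 15501 other tested genes, 247 had an r over 0.9 with Col6a1 and 236 with Col6a2, against 0 with Col6a3 (26, 25 and 0 without bexarotene replicate 1). Most like Col6a1 were Sparc (r = 0.991 over 12 tumors and 0.976 without bexarotene replicate 1), which encodes a collagen-binding matrix glycoprotein, Adamts2 (0.982 and 0.960), a procollagen N-proteinase, and Itga5 (0.977 and 0.948), the α5 subunit of the fibronectin receptor. Vim (0.976 and 0.931), the intermediate filament protein of mesenchymal cells, and Plxnd1 (0.973 and 0.927), a semaphorin receptor of endothelium, followed. Most like Col6a2 were again Sparc (0.986 and 0.961), Plxnd1 (0.982 and 0.949) and Itga5 (0.980 and 0.953), then F2r (0.978 and 0.945), a thrombin receptor, and Ppic (0.974 and 0.925), a cyclophilin. The genes most like Col6a3 were Sox18 (0.888 and 0.852), a transcription factor of endothelial cells, Dysf (0.856 and 0.816), which encodes dysferlin, and Msx1 (0.852 and 0.787), a homeobox factor. Snai2 (0.844 and 0.803), a zinc finger repressor, and Ramp2 (0.844 and 0.793), which forms the adrenomedullin receptor, came next. This order depended on bexarotene replicate 1. Without it the 5 genes most like Col6a3 were Tmem50b (r = 0.859, against 0.240 over 12 tumors), Sox18, Mettl23 (0.844), Uggt1 (0.839) and Usp15 (0.831). Dysf, Msx1, Snai2 and Ramp2 then ranked 8, 17, 11 and 13. By r over all 12 tumors, Col6a3 itself ranked 1170 in likeness to Col6a1, and Col6a2 ranked 2. In likeness to Col6a3, Col6a2 ranked 59 and Col6a1 ranked 107 (255 and 473 without bexarotene replicate 1). These correlations are a description over 12 tumors of 3 groups that share depth and tissue composition.

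The other genes of collagen VI biology were taken from lists, and none of their genes passed the adjusted threshold in any comparison (lowest adjusted p = 0.762 among the genes named, edgeR with Benjamini-Hochberg). Of 7 receptors of collagen VI, 6 were higher with MSU-42011 (median log2 fold change 0.31, against 0.0016 over all genes). The one with the smallest p was Itga1, the α1 integrin subunit, at 22.5, 19.6, 30.0 and 22.9 normalized CPM in MSU-42011 tumors against 16.2, 13, 17.0 and 19.4 in control tumors (log2 fold change 0.53, edgeR unadjusted p = 0.0898). The groups did not overlap, which held in this direction for 1.16% of all tested genes. With bexarotene 5 of 7 receptors were higher (median 0.60, against 0.030 over all genes). Without bexarotene replicate 1, 4 of 7 were higher (median 0.07, against 0.006 over all genes). Antxr1, a receptor of the anthrax toxin family that binds the endotrophin region of α3, had a log2 fold change of 3.07 (edgeR unadjusted p = 0.0154) and of 0.75 without bexarotene replicate 1. It was at 56.7 normalized CPM in that tumor and at 11.8 or less in every other.

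Matrix partners of collagen VI were next. With MSU-42011, 3 of 7 tested partners were higher than in control (median −0.12), and none had an unadjusted p under 0.05. With bexarotene 6 of 7 were higher (median 3.50) and 5 had an unadjusted p under 0.05 (4.48% of all tested genes were higher at that level), namely Fn1 (fibronectin, log2 fold change 4.14), Bgn (biglycan, 3.50), Dcn (decorin, 5.24), Tnxb (tenascin-X, 5.0) and Hspg2 (perlecan, 1.29). Without bexarotene replicate 1 the median was 0.96 and none of the 7 had an unadjusted p under 0.05. Dcn was at 345 normalized CPM in that tumor and at 30.4 in bexarotene replicate 2, against 0 to 7.95 in the other 10 tumors. Matn1 and Matn3, matrilins that bridge collagen VI to other matrix proteins, had too few reads to be tested. Against bexarotene, 4 of 7 partners were lower in MSU-42011 tumors at an unadjusted p under 0.05 (3.13% of all tested genes), and 2 of 7 without bexarotene replicate 1 (1.47% of all tested genes).

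Of the fibrillar collagens, all 7 were higher with MSU-42011 (median 0.31, no unadjusted p under 0.05) and 6 of 7 with bexarotene (median 3.55). Col3a1, Col1a2, Col5a1, Col1a1 and Col5a2 had log2 fold changes of 4.21, 3.78, 3.33, 3.55 and 3.58 with bexarotene, and of 0.99, 0.89, 0.62, 0.71 and 0.59 without bexarotene replicate 1, where none had an unadjusted p under 0.05. With all tumors each of these 5 fitted changes was larger than that of any collagen VI chain, and without bexarotene replicate 1 each was below that of Col6a3 (1.06). Of 18 genes of collagen biosynthesis, 13 were higher with MSU-42011 (median 0.06) and 13 with bexarotene (median 0.17, 0.02 without replicate 1). Colgalt2, which adds galactose to hydroxylysine, had a log2 fold change of 1.13 with MSU-42011 and 1.25 with bexarotene (edgeR unadjusted p = 0.0372 and 0.0235). Of all tested genes, 1.14% and 4.48% were higher at an unadjusted p under 0.05 in these comparisons. Colgalt2 was low, at 0.356 to 2.84 normalized CPM, and 3 of 4 tumors of each agonist were above every control tumor. With bexarotene P4ha3, a prolyl 4-hydroxylase subunit, had a log2 fold change of 5.03 (2.11 without replicate 1, where it was at 61.8 normalized CPM against at most 5.72 in the other tumors), and P3h2, a prolyl 3-hydroxylase, of −0.80 (edgeR unadjusted p = 0.020).

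The proteases that can cleave collagen VI and the macrophage genes linked to endotrophin were followed as well. Among 5 proteases, 4 had higher levels with MSU-42011 (median 0.20) and 4 with bexarotene (median 1.48, 0.07 without bexarotene replicate 1). Mmp2, a gelatinase, was at 349.96 normalized CPM in that tumor and between 6.01 and 34.4 in the other tumors (log2 fold change 3.40 against control, 0.96 without that tumor). Among 4 macrophage genes, 2 had higher levels with MSU-42011 (median 0.02) and 4 with bexarotene (median 0.55, 0.01 without that tumor). Ccl2, a monocyte chemoattractant, had a log2 fold change of 2.34 with bexarotene and 0.45 without replicate 1 (edgeR unadjusted p = 0.0155 with all tumors), and Tnf one of 0.35 with MSU-42011.

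Markers of other cell types moved as follows beside these results, and their part in them was not tested. Of 12 fibroblast markers, 12 were higher with bexarotene (median 4.46), 9 of them at an unadjusted p under 0.05 (4.48% of all tested genes), against 1 of 12 without bexarotene replicate 1 (median 1.21, 1.6% of all tested genes). Their summed level was 76.2 to 3220 normalized CPM in bexarotene tumors, 105 to 255 in control and 79.3 to 316 in MSU-42011 tumors. Of 8 endothelial markers, 7 were higher with MSU-42011 (median 0.21) and 8 with bexarotene (median 0.72, 0.09 without replicate 1), with sums of 87.4 to 170.2 in control, 114 to 223 in MSU-42011 and 134 to 476 normalized CPM in bexarotene tumors. The medians with MSU-42011 and with bexarotene were 0.22 and 0.23 for 6 pericyte and smooth muscle markers, −0.13 and 0.82 for 9 macrophage markers and −0.21 and −0.21 for 10 luminal epithelial markers. They were −0.37 and −1.02 for 4 myoepithelial markers, −0.16 and −0.01 for 4 Schwann cell markers and −0.17 and 0.39 for 3 adipocyte markers. The 5 skeletal muscle markers tested had medians of −2.30 and 1.15, and their summed level was highest in bexarotene replicate 1 (313 normalized CPM) and control replicate 1 (157). Without bexarotene replicate 1 the medians with bexarotene were −0.14 for pericyte and smooth muscle, −0.20 for macrophage, −0.62 for adipocyte and −1.88 for skeletal muscle markers. Against bexarotene, MSU-42011 tumors had a median of −6.20 over the fibroblast markers, −3.06 without bexarotene replicate 1, where 7 of 12 were lower at an unadjusted p under 0.05, against 1.47% of all tested genes.

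**Figure D5:**
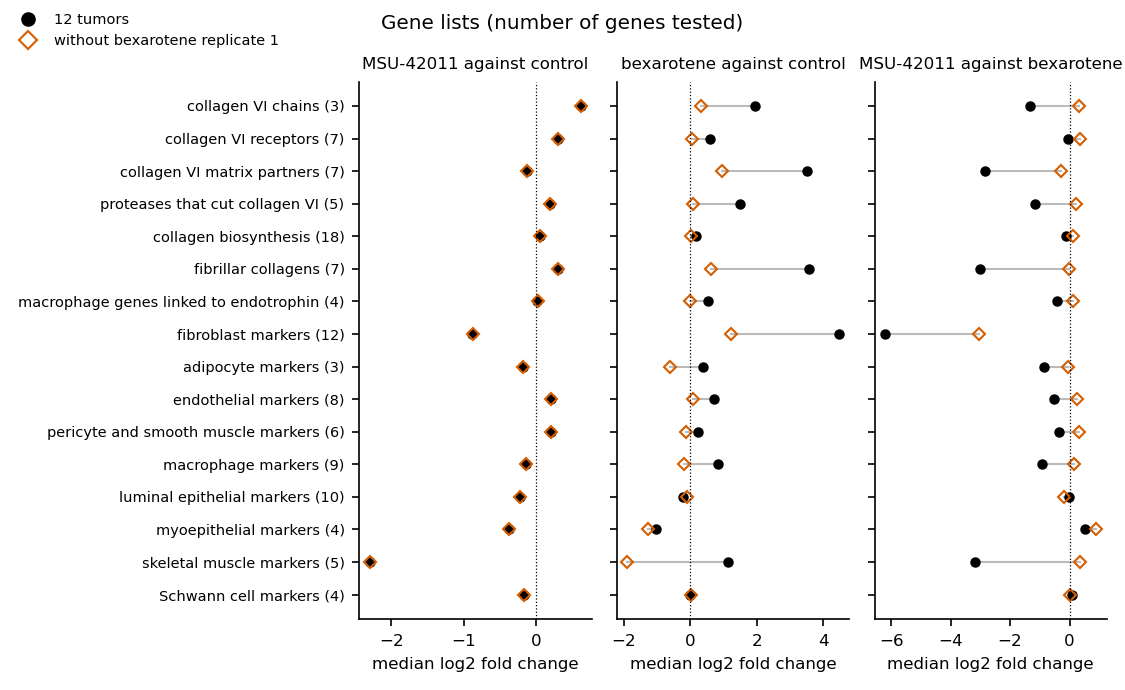
Median log2 fold change of each gene list in the 3 comparisons, with all 12 tumors (black) and without bexarotene replicate 1 (orange), and the number of genes tested in brackets. With MSU-42011 the collagen VI chains are at 0.63 and the fibroblast markers at −0.88, and with bexarotene the fibroblast markers go from 4.46 to 1.21 and the fibrillar collagens from 3.55 to 0.62 without that tumor.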

How the data were processed

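RNA of 12 tumors, 4 per diet group as the labels give them, had been sequenced from poly(A) libraries. The deposited counts per gene and deposited FPKM per gene were made by the authors. The submitters' processing notes name STAR 2.6.1d, featureCounts 1.5.0-p3 and DESeq2, while the genome build and the strand setting are not given in the sources used here. Gene coordinates matched GENCODE M21 (GRCm38) for 98.0% of genes. The total count was 16583413 to 25925027 per tumor, so a count of 0 allows up to 3 reads, and that limit covers counting error only. Replicates are labelled as separate tumors, and p-values measure the spread between them.

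Counts were fitted in edgeR 4.0.16 (R 4.3.3) with TMM scaling, its filter on low counts and a quasi-likelihood test in 1 model of the 3 groups, with Benjamini-Hochberg adjustment over all 15504 tested genes and a threshold of 0.05. Ratios of chains and levels relative to markers used log2(FPKM) and log2(normalized CPM + 0.5) and the exact two-sided permutation test over tumors. Correlations used 100000 permutations in scipy 1.17.1. The scripts were tested on simulated data. Alternatives were DESeq2 1.42.0, limma 3.58.1 on log2(FPKM + 1) or log2(FPKM + 0.1), other scalings and filters, a replicate block and leaving out each tumor.

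The chains, lists and tests were chosen with earlier results of these data known. Genes named were the 6 chains, up to 5 genes per list and comparison with the smallest unadjusted p under 0.05 (otherwise the 1 with the smallest), and the 5 genes most correlated with each chain. Of these, the text gives those that its comparisons turn on. The principal transcript lengths, the ratio of Col6a1 to Col6a2, the levels of Col6a1 and Col6a2 relative to markers and the list counts without bexarotene replicate 1 were added after the data were seen.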

Additional observations from a re-analysis of the deposited data

Results flagged for a closer look

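Of 31 sets of 4 values examined for a tumor far from the others of its group, 6 held one. For independent and normally distributed values, chance alone picks about 1 in 20 such sets. That rate does not apply to the 3 sets below in which the other 3 tumors were at 0, where any single read stands apart. Whether it holds for the other sets was not tested, and Col6a1 and Col6a2 followed each other too closely to count as separate sets. Bexarotene replicate 1 stood far above the other bexarotene tumors for Col6a1, at 297 against 44.3 normalized CPM for the next, and for Col6a2, at 277 against 33.5. Col6a4 was at 0.0369 normalized CPM, 1 read, in the same tumor and at 0 in the others of its group. In control tumors, Col6a5 was at 0.0593 normalized CPM in replicate 1 (1 read) and Col6a6 at 0.214 in replicate 3 (4 reads), each against 0 in the other 3. The log2 level of Col6a3 relative to fibroblast markers was 5.42 in MSU-42011 replicate 3, against 4.26 in the next tumor of its group.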

How the results depend on the processing

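The log2 fold change of Col6a3 was above 0 against control under every alternative run, at 1.05 to 1.86 for MSU-42011 and at 1.06 to 2.22 for bexarotene, and no chain passed an adjusted p of 0.05 under any. Where a value changed below, the cause was not tested. Over all genes edgeR called 0 in each comparison, and leaving out a tumor gave 0 to 1 across the 3 groups and for bexarotene against control (1 without MSU-42011 replicate 2). DESeq2 called 5 genes across the 3 groups, 1 for MSU-42011 and 6 for bexarotene relative to control, and 25 between the agonists. With its Cook's distance filter turned off these counts were 11, 7, 7 and 41. Limma on log2(FPKM + 0.1) called 1 across the 3 groups and 1 for bexarotene against control, where limma on log2(FPKM + 1) without a filter also called 1. For MSU-42011 against bexarotene, Col6a3 turned from −0.36 to 0.000287 in limma on log2(FPKM + 1) with and without a filter and to 0.026 on log2(FPKM + 0.1). Leaving out a tumor gave −0.86 to 0.50 for Col6a3, −1.88 to 0.26 for Col6a1 and −1.87 to 0.33 for Col6a2, each highest without bexarotene replicate 1.

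The tumors showed no regular pairing by replicate number, with correlations of −0.35 to 0.35 between deviations of same-numbered tumors. Some correlated best with their own number (0.35 against at most −0.04 for replicate 1, bexarotene against control). Others did not (−0.35 against at most 0.30 for replicate 3, MSU-42011 against control). A replicate block left edgeR at 0 calls and gave Col6a3 log2 fold changes of 1.86 (MSU-42011) and 1.72 (bexarotene) relative to control and of 0.14 between the agonists. For Col6a3 relative to fibroblast markers, MSU-42011 against control was 1.09 with fibrillar collagens as markers and 2.03 in the replicate block (exact sign-flip permutation p = 0.125, the smallest that 4 pairs allow). Leaving out a tumor gave 1.72 to 2.36, with an exact permutation p of 0.0286 without any 1 control tumor and 0.0571 without any 1 MSU-42011 tumor. For bexarotene against control the difference of −0.10 became 0.14 with fibrillar collagens as markers and −1.09 to 0.62 with a tumor left out, above 0 without control replicate 4 or bexarotene replicate 1 or 2. MSU-42011 against bexarotene gave 1.41 to 3.12, with an exact permutation p of 0.0286 without bexarotene replicate 4. The log2 ratio of Col6a3 to its partners gave differences of 0.54 to 1.21 for MSU-42011 against control. This difference was lowest without MSU-42011 replicate 2, the tumor with the highest ratio. It was highest without MSU-42011 replicate 1 (exact permutation p = 0.0286). For bexarotene against control the ratio gave −0.27 to 0.52, lowest without bexarotene replicate 4.

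The correlation of Col6a3 with Col6a1 no longer passed an adjusted p of 0.05 without bexarotene replicate 1 (0.543), without the 2 farthest tumors (0.329) or within groups (0.718), and that with Col6a2 without bexarotene replicate 1 (0.601) or the 2 farthest tumors (0.453). Correlations with marker lists that changed sign are given without bexarotene replicate 1 and without the 2 farthest tumors. With adipocyte markers they were −0.116 and −0.248 for Col6a1, −0.219 and −0.342 for Col6a2 and −0.300 and −0.501 for Col6a3. With luminal markers they were 0.0219 and 0.437 for Col6a1 and 0.0637 and 0.422 for Col6a2. For Col6a3 they were −0.138 and −0.334 with fibroblast markers and −0.122 and −0.142 with skeletal muscle markers, and −0.00395 with macrophage markers without bexarotene replicate 1. The median ratio of Col6a1 to Col6a2 moved from 1.87 to 1.00 with the principal transcript length, an alternative chosen after seeing the data. Depth limits Col6a4 to Col6a6, whose counts were mostly 0.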
